A study of Mus musculus with 4 samples.

Results

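Protocadherins are calcium-dependent adhesion proteins of the cadherin superfamily that sit on the surface of neurons and other cells. The protocadherin genes were taken as all genes of the deposited table whose symbol starts with Pcdh, which gave 71 of 17778 genes. Of these, 59 belong to the clustered protocadherins, with 15 in the alpha cluster, 22 in the beta cluster and 22 in the gamma cluster, and the remaining 12 lie outside the clusters. All 71 had a value above zero in both groups.

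The values are mRNA levels in the medial prefrontal cortex (mPFC), part of the frontal neocortex, of juvenile male mice of the inbred strain C57BL/6 (C57BL/6J in the methods of the study). The CUMS group (2 libraries) came from mice kept under chronic unpredictable mild stress, such as isolation, restraint, wet or tilted cages, noise and disturbed light cycles, and selected because all behavior tests showed a depression-like state. The control group (2 libraries) came from mice of the same strain that lived without these stressors. Tissue of both hemispheres was taken the day after the tests, stressed mice without the depression-like state were left out, and whether a library holds RNA of 1 mouse was not stated.

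The clustered protocadherins give neurons a surface identity. In the alpha and gamma clusters each variable first exon has its own promoter and is spliced to constant exons shared by the whole cluster, whereas beta members are mostly genes of a single exon. A neuron switches on a few alternate members, apparently at random, and often all C-type members, and the proteins bind copies of themselves on other membranes, which lets the branches of a neuron avoid each other. The protocadherins outside the clusters are separate genes with their own promoters, act in axon growth, cell sorting and synapse remodelling, and are mostly grouped as delta-1 and delta-2 by their intracellular part.

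Levels are given in RPKM, the reads of a gene per kilobase of its length, scaled to the size of the library. The authors had averaged RPKM over the libraries of each group, so that each gene had 1 control mean and 1 CUMS mean and no value for a library. No difference below therefore has a replicate check, none could be compared with the variation between mice, and no p-value could be computed. The steps between low values corresponded to about 7385524 counted fragments in each control library and 7440476 in each CUMS library. The study gives larger read numbers, and this gap was not resolved. These estimates gave each log2 ratio of CUMS to control a 95% counting interval, which covers counting error only and says nothing of how mice vary. A fold above 1.5 was counted as a difference where a gene reached 0.5 RPKM in at least 1 group. In this bulk tissue, fewer cells of a type and less RNA per cell cannot be told apart.

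Lists of cell type and region markers were set beside the protocadherins. The lists were chosen with earlier results of these data known, and several hold genes that the study itself reported as lower in CUMS. Among these are Zic1, Nts and Dlk1 of septum and hypothalamus, and Doc2g, Calb2 and Th of the olfactory bulb. Counts of lower genes in such lists were thus partly fixed in advance and are given as description only. Of all listed markers, 0 stood at zero in either group. This held also for the markers of striatum, septum, hypothalamus and olfactory bulb, so detection alone does not show which tissue was dissected. Of 12 markers of neocortical excitatory neurons, 11 were higher in CUMS, with summed levels of 2302 RPKM in control and 2834 RPKM in CUMS. Lower in CUMS were 9 of 10 markers of oligodendrocytes and myelin (1965 and 1341 RPKM summed), 5 of 8 of GABAergic neurons (789 and 683 RPKM), 10 of 10 of striatal projection neurons (359 and 305 RPKM), 12 of 12 of septum and hypothalamus (205 and 105 RPKM) and 10 of 10 of the olfactory bulb (106 and 57.2 RPKM). Of the remaining lists, 6 of 8 markers of oligodendrocyte precursors, 4 of 8 of astrocytes, 5 of 9 of endothelial and mural cells and 2 of 8 of microglia were lower. Single genes weighed heavily in some sums. Hap1 was 115.9 RPKM of the septum and hypothalamus sum in control and 73.0 RPKM in CUMS, and Calb2 was 36.1 and 19.1 RPKM of the olfactory bulb sum. How specific the listed genes are to a region was not tested. With this limit, markers listed for several cell types and regions differed between the groups. Their part in any protocadherin difference was not tested.

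Protocadherin mRNAs as a whole differed little between CUMS and control mice. Of the 71 genes, 41 were higher and 30 were lower in CUMS, and the median log2 ratio was 0.05, beside -0.02 over all genes. Their summed fragments were 31325 in control and 32516 in CUMS, a log2 ratio of 0.04 (counting interval 0.02 to 0.07). The higher members were 12 each of the alpha, beta and gamma clusters and 5 outside them, that is 12 of 15 alpha members but 12 of 22 in each of the other clusters, and the members outside the clusters had a median of -0.07.

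Among the 66 members that reached 0.5 RPKM, 6 were more than 1.5-fold higher in CUMS (9.09% of members, beside 2.74% of 14257 genes). They were Pcdha1, Pcdha5, Pcdha10, Pcdhac1, Pcdhb6 and Pcdhb8. Another 3 were more than 1.5-fold lower (4.55% of members, beside 4.39% of genes), namely Pcdhb16, Pcdhb21 and Pcdh20. Pcdha1 reached 0.5 RPKM only in CUMS, and Pcdhb16 and Pcdhb21 only in control, each the group in which it was higher. The background genes were filtered by the same rule. All 9 had a larger mean between 0.5 and 5 RPKM, a range in which large folds were common. Of the 43 members in that range, 14.0% were higher by this fold and 6.98% were lower, beside 7.41% and 10.4% of 4860 genes. These shares rest on 6 higher and 3 lower members, and neither was tested against the background. The higher members came from the alpha cluster (4 of 12) and the beta cluster (2 of 19), where 2 of 19 were also lower.

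**Figure D1:**
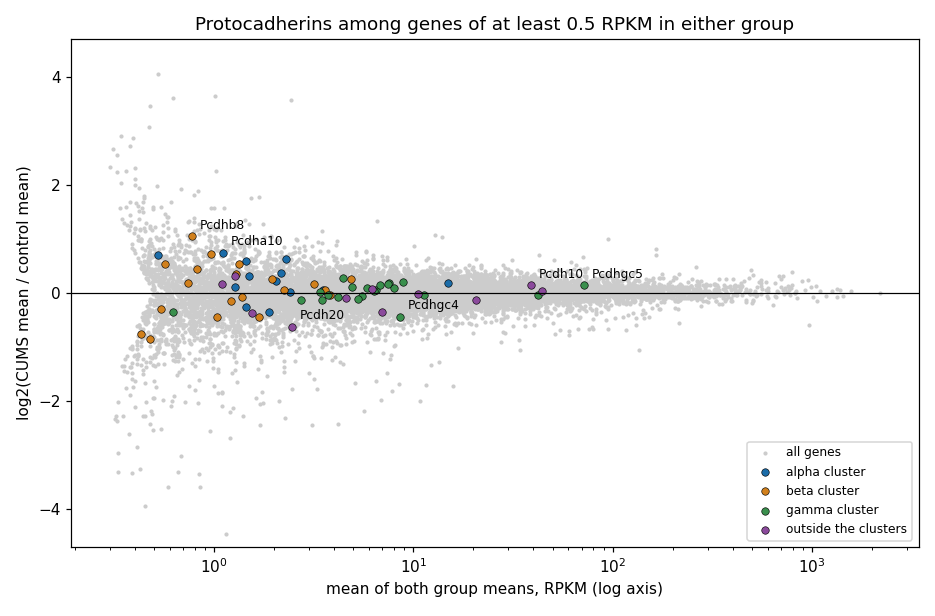
Each point is a gene that reached 0.5 RPKM in at least 1 group, placed by the mean of its group means in RPKM (log axis) and by its log2 ratio of CUMS to control, with genes at zero in a group left out. The 66 protocadherins (coloured by cluster) lie within the cloud of all genes (grey), and those beyond a 1.5-fold difference have means under 5 RPKM.

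By the counting interval, 13 of 66 members were higher in CUMS (19.7%, beside 12.5% of genes) and 7 were lower (10.6%, beside 16.8% of genes). The higher ones were Pcdha1, Pcdha4, Pcdha5, Pcdha10, Pcdhac1 and Pcdhac2 of the alpha cluster, Pcdhb8 and Pcdhb13 of the beta cluster, Pcdhga2, Pcdhga3, Pcdhga12 and Pcdhgc5 of the gamma cluster, and Pcdh10. The lower ones were Pcdha9, Pcdhb14, Pcdhb16, Pcdhgc4, Pcdh8, Pcdh17 and Pcdh20.

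All clusters lie on chromosome 18. The shared exons of the alpha and gamma clusters limit how far reads can be given to a single member. In the annotation, between 47.7% and 96.5% of the 100-base windows of an alpha transcript also occurred in another protocadherin gene (median 55.4% over 14 members), and in the gamma cluster between 40.7% and 64.0% (median 44.1% over 22 members). The beta members shared at most 7.73%, and the members outside the clusters shared 0%. Only uniquely aligned reads were counted by the authors, and how reads of the constant exons were given to members was not stated. Pcdha8 held 10 control fragments and 7 CUMS fragments over its whole length, so constant-exon reads of the cluster had not been added to every member. Ratios of alpha and gamma members compare the same gene between groups, but levels between members are uncertain. The value of Pcdha4 is the least certain, since the read-through transcript Pcdha4-g uses the same first exon.

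The alpha cluster (from Pcdha1 at position 36930285 to the shared end near 37187657 on chromosome 18, GRCm38) stood higher in CUMS. Of 15 members, 12 were higher and 3 were lower, with a median log2 ratio of 0.21. Summed fragments were 2705 in control and 3120 in CUMS, a log2 ratio of 0.20 (0.12 to 0.27). The difference was seen in the 12 alternate members (9 higher, summed log2 ratio 0.17, 0.07 to 0.27) and in the 2 C-type members (both higher, 0.22, 0.11 to 0.33).

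Among alternate alpha members, the isoforms that neurons choose in combinations, Pcdha10 (gene 12943, starting at 37005320) had the highest ratio. It was 0.835 RPKM in control (65 fragments) and 1.395 RPKM in CUMS (109 fragments), a log2 ratio of 0.74 (0.28 to 1.20). Pcdha1 was 0.40 RPKM (31 fragments) in control and 0.65 RPKM (51 fragments) in CUMS, with a log2 ratio of 0.70 (0.04 to 1.4). Pcdha5 was 1.795 RPKM in control mice and 2.775 RPKM in CUMS mice, a log2 ratio of 0.63 (0.31 to 0.95). These members are neighbours of others that differed less or in the opposite direction. Pcdha9 was lower, at 2.13 RPKM in control and 1.66 RPKM in CUMS, a log2 ratio of -0.36 (-0.70 to -0.02). Pcdha2 was 1.575 RPKM in control mice and 1.31 RPKM in CUMS mice, a log2 ratio of -0.27 (-0.65 to 0.12). The highest alternate member, Pcdha12, was nearly equal at 3.465 RPKM in control and 3.575 RPKM in CUMS (log2 ratio 0.05). Pcdha6 was also nearly equal, at 2.38 and 2.41 RPKM (log2 ratio 0.02). Pcdha8 was lower as well, on 10 and 7 fragments (log2 ratio -0.61, -2.16 to 1.02). The 3 lower members, Pcdha2, Pcdha8 and Pcdha9, thus lay among higher ones along the chromosome.

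The 2 C-type alpha members, which neurons use more evenly than the alternate ones, held 44.7% of the fragments of the cluster in control and 45.6% in CUMS, and the 12 alternate members held 54.8% and 53.9%. Pcdhac2 (gene 353237, starting at 37143678) was the highest alpha member, with 13.985 RPKM in control (1120 fragments) and 15.93 RPKM in CUMS (1285 fragments). Its log2 ratio was 0.19 (0.07 to 0.30). It made up 41.4% of the fragments of the alpha cluster in control (exact 95% interval 39.5 to 43.3) and 41.2% in CUMS (39.5 to 42.9). Pcdhac2 therefore stood higher to the same degree as its cluster, and its share stayed level. Shares in the alpha and gamma clusters compare members, so the unknown handling of constant-exon reads limits them. Intervals of shares cover counting error only. Pcdhac1 was 1.15 RPKM in control (90 fragments) and 1.74 RPKM in CUMS (137 fragments), a log2 ratio of 0.60 (0.20 to 1.00). The read-through Pcdha4-g was 0.29 RPKM in control mice and 0.38 RPKM in CUMS mice, on 12 and 16 fragments, and Pcdha4 was 1.895 and 2.44 RPKM (log2 ratio 0.36, 0.05 to 0.68).

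**Figure D2:**
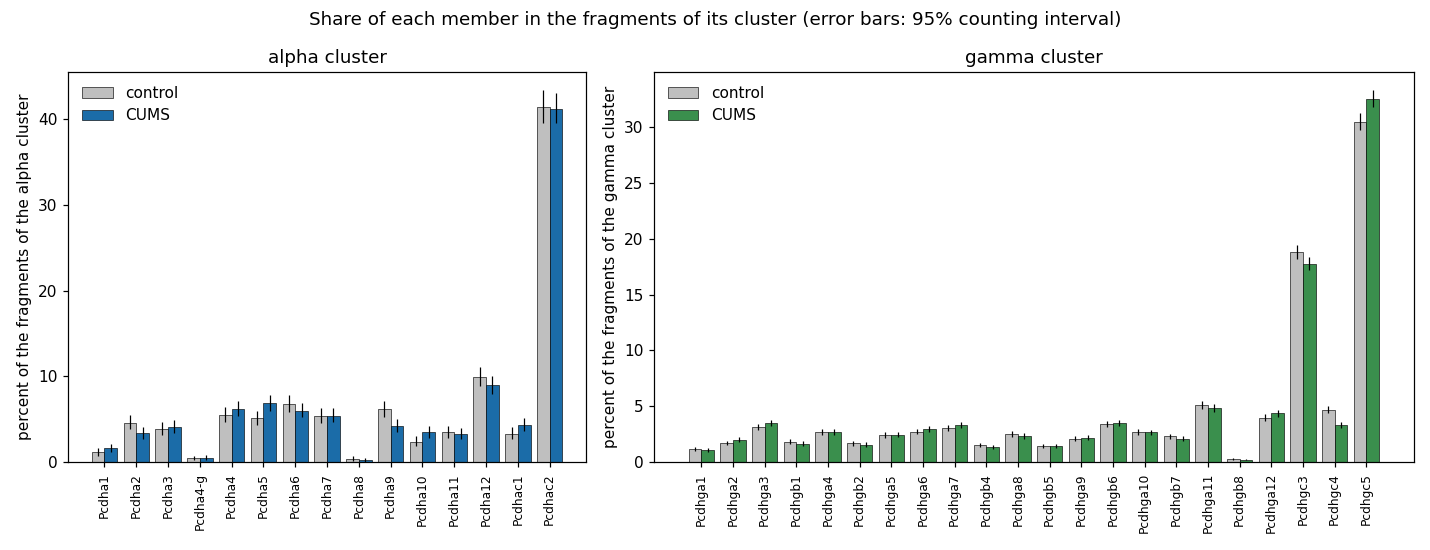
Bars give the percent of the fragments of the alpha cluster (left) and the gamma cluster (right) that belonged to each member in control (grey) and CUMS (coloured), with exact 95% counting intervals. Pcdhac2 holds 41.4% and 41.2% of the alpha cluster, and Pcdhgc5 holds 30.5% and 32.5% of the gamma cluster.

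The beta cluster was low and showed no common direction. Its 22 members ranged from 0.13 to 4.45 RPKM in control and from 0.055 to 5.32 RPKM in CUMS. Of these, 12 were higher and 10 were lower in CUMS, with a median log2 ratio of 0.06. Summed fragments were 1600 in control and 1697 in CUMS, a log2 ratio of 0.07 (-0.02 to 0.17), an interval that includes 0.

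The highest beta members were Pcdhb17, Pcdhb9 and Pcdhb20. Pcdhb17 was 4.45 RPKM in control (216 fragments) and 5.32 RPKM in CUMS (260 fragments), a log2 ratio of 0.26 (-0.01 to 0.52). Pcdhb9 was 3.885 and 3.76 RPKM (log2 ratio -0.05), and Pcdhb20 was 3.535 and 3.665 RPKM (log2 ratio 0.05). The counting intervals of these genes include 0. The largest differences were in genes with few fragments. Pcdhb8 (gene 93879, 37355271 to 37357610) was 0.505 RPKM in control (17 fragments) and 1.045 RPKM in CUMS (36 fragments), a log2 ratio of 1.05 (0.20 to 2.00). Pcdhb6 was 0.73 and 1.195 RPKM on 25 and 41 fragments, with a log2 ratio of 0.71 whose interval (-0.05 to 1.48) includes 0. Pcdhb13 had a log2 ratio of 0.54 (0.06 to 1.05) on 59 and 87 fragments, and Pcdhb4 had one of 0.54 on 26 and 37.

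In the other direction, Pcdhb21 was 0.615 RPKM in control (25 fragments) and 0.34 RPKM in CUMS (14 fragments), a log2 ratio of -0.86 (-1.90 to 0.15). Pcdhb16 was 0.545 and 0.32 RPKM on 42 and 25 fragments, a log2 ratio of -0.77 (-1.53 to -0.01). Pcdhb14, with more fragments behind it (99 and 72), was 1.94 RPKM in control mice and 1.415 RPKM in CUMS mice, a log2 ratio of -0.46 (-0.93 to -0.02). Pcdhb1 and Pcdhb2 were near the limit of detection, with 5 and 14 control fragments and 2 and 10 CUMS fragments. At this depth, a difference in these genes was not detectable.

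**Figure D3:**
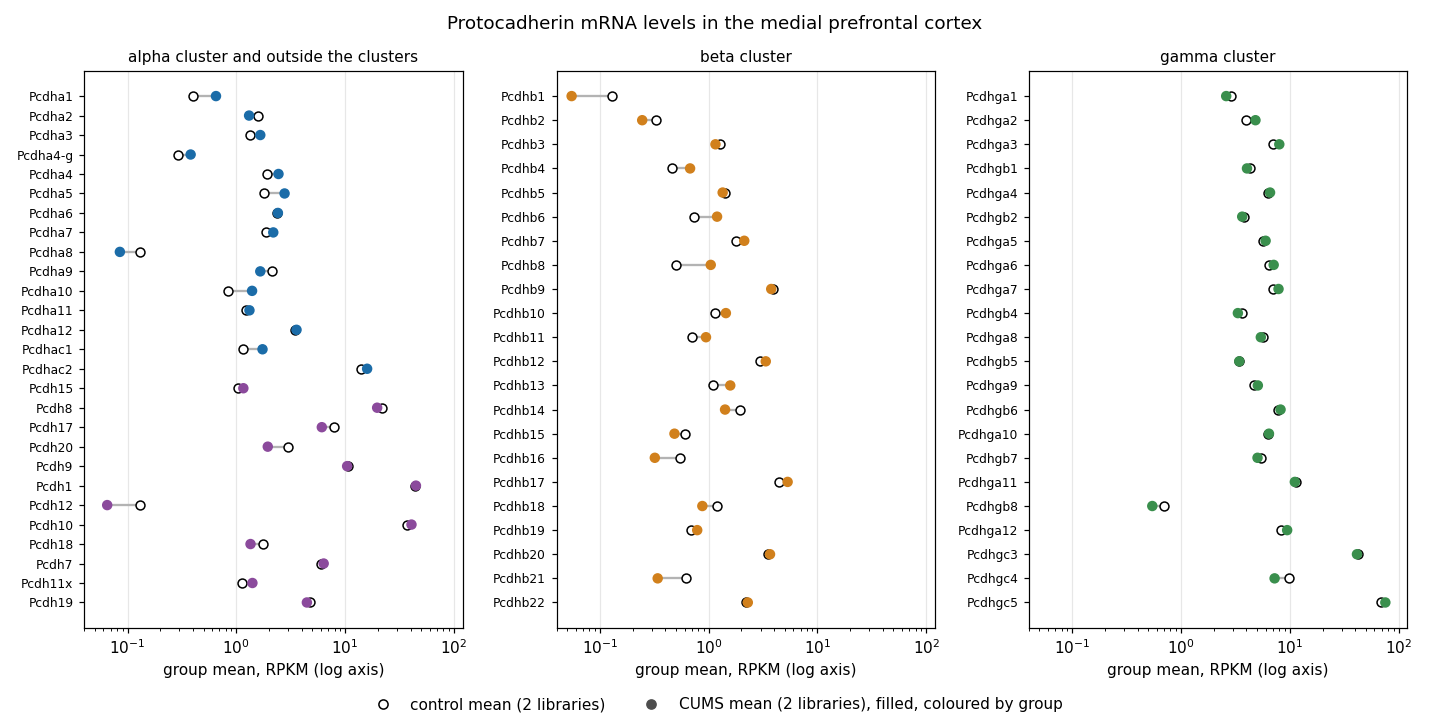
Each row is a protocadherin gene, with its control mean (open) and its CUMS mean (filled) in RPKM on a log axis, for the alpha cluster and the genes outside the clusters (left), the beta cluster (middle) and the gamma cluster (right). Pcdhgc5, Pcdh1, Pcdhgc3 and Pcdh10 lie highest, and the wide gaps belong to genes of low RPKM.

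The gamma cluster held most clustered protocadherin fragments, 15673 in control and 16300 in CUMS, and was nearly even between the groups. Of 22 members, 12 were higher and 10 were lower, the median log2 ratio was 0.03 and that of summed fragments was 0.05 (0.01 to 0.08). Without Pcdhgc5, the deepest member, the summed log2 ratio was 0.0027, and without all 3 C-type members it was 0.06 (0.01 to 0.11). No gamma member differed by more than 1.5-fold.

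The C-type gamma members Pcdhgc3, Pcdhgc4 and Pcdhgc5 stand at the end of the cluster and made up 54.0% of its fragments in control and 53.6% in CUMS. Pcdhgc5 (gene 93708, 37819546 to 37841873) was the highest of all protocadherins, with 68.7 RPKM in control (4775 fragments) and 75.6 RPKM in CUMS (5300 fragments). Its log2 ratio was 0.14 (0.08 to 0.20). Only 6.15% of all genes had a mean as high or higher. Its share of the gamma cluster was 30.5% in control (29.7 to 31.2) and 32.5% in CUMS (31.8 to 33.2).

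Pcdhgc4 (gene 93707, 37815079 to 37841873), the isoform known to be needed for the survival of many cortical interneurons, was the gamma member with the lowest ratio. It was 9.90 RPKM in control (738 fragments) and 7.255 RPKM in CUMS (545 fragments), a log2 ratio of -0.45 (-0.61 to -0.29). Its share of the cluster was 4.71% in control (4.38 to 5.05) and 3.34% in CUMS (3.07 to 3.63). Pcdhgc4 thus stood lower while its neighbour Pcdhgc5 stood higher, on the same constant exons. Of the 8 GABAergic markers, 5 were also lower in CUMS, among them Gad1 and Gad2, which make GABA, and Slc32a1, which loads it into vesicles. The interneuron class markers of the list were split, with Lhx6 at a log2 ratio of -0.43 (-0.63 to -0.23), Vip at 0.51 (0.31 to 0.71), Pvalb at 0.19 (-0.03 to 0.42) and Sst at 0.05 (-0.02 to 0.13). The region marker lists of striatum, septum, hypothalamus and olfactory bulb were lower in CUMS as well. The part of the GABAergic and region markers in the value of Pcdhgc4 was not tested. Pcdhgc3 was 42.6 RPKM in control mice and 41.5 RPKM in CUMS mice, a log2 ratio of -0.04 (-0.11 to 0.04), and 74.9% of its windows also lie in other genes.

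The alternate gamma members fall into A and B types by their sequence and alternate along the chromosome. Of 12 A-type members, 9 were higher in CUMS (median log2 ratio 0.10, summed 0.09, 0.04 to 0.15). Of 7 B-type members, 2 were higher and 5 were lower (median -0.08, summed -0.03, -0.12 to 0.06). The counting intervals of the summed ratios overlap, and whether the types differed could not be tested. Pcdhga2 was 3.995 RPKM in control mice and 4.84 RPKM in CUMS mice, the highest ratio of the cluster (log2 0.28, 0.04 to 0.52). Pcdhga12 (8.285 and 9.465 RPKM) and Pcdhga3 (7.025 and 8.015 RPKM) each had a log2 ratio of 0.19. Pcdhga2 and Pcdhga3 are neighbours near the start of the cluster, and Pcdhga12 lies at the other end of its alternate exons. Pcdhga11, the highest alternate member, was 11.455 RPKM in control (806 fragments) and 11.135 RPKM in CUMS (789 fragments), a log2 ratio of -0.04 (-0.18 to 0.10). As 71.0% of the windows of Pcdhga11 also lie in other genes, its level and rank are uncertain. Pcdhga1 had a log2 ratio of -0.13. Pcdhgb8, which RefSeq lists as a transcribed pseudogene and GENCODE as a polymorphic one, was 0.70 RPKM in control mice and 0.545 RPKM in CUMS mice, a log2 ratio of -0.36 (-1.0 to 0.30) on 48 and 38 fragments.

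**Figure D4:**
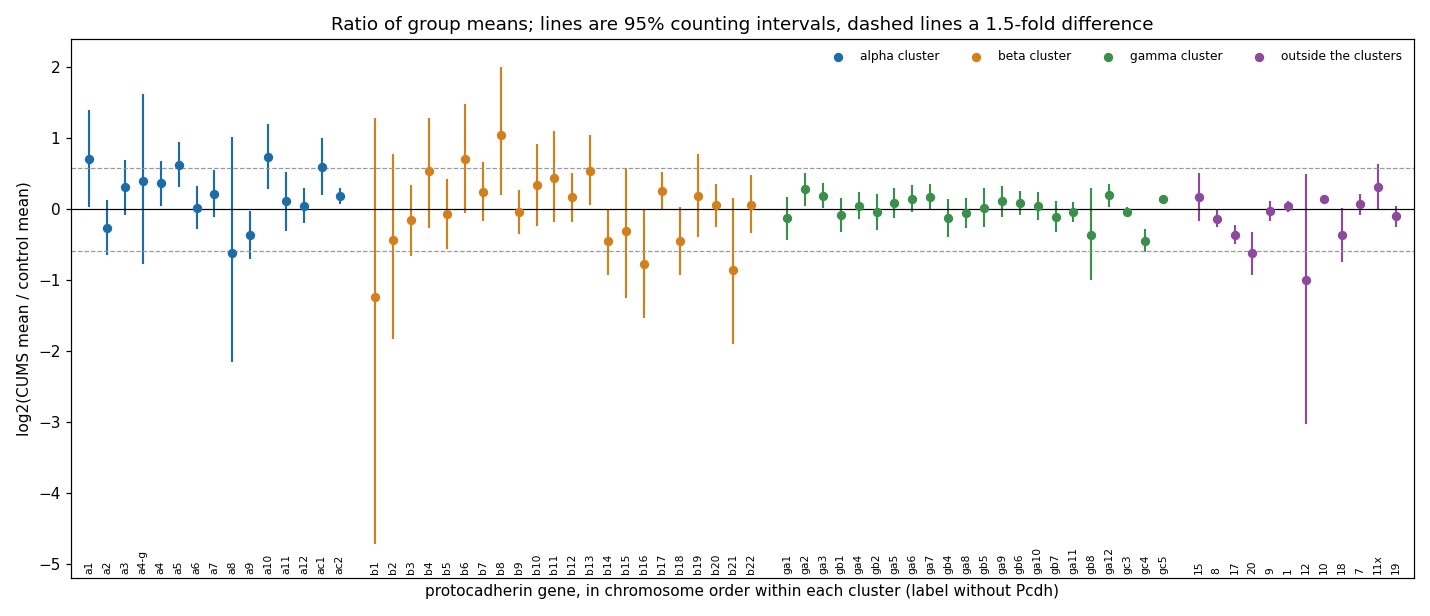
Points give the log2 ratio of CUMS to control for each protocadherin and lines its 95% counting interval, with clusters in chromosome order and dashed lines at a 1.5-fold difference. Most alpha points lie above 0, the gamma points lie closer to 0, between Pcdhgc4 (-0.45) and Pcdhga2 (0.28), and the beta points are wide and on both sides.

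Outside the clusters, 5 of 12 protocadherins were higher and 7 were lower in CUMS. The median log2 ratio was -0.07, and summed fragments were 11347 in control and 11399 in CUMS (log2 ratio -0.004, -0.04 to 0.03). The even sum hid members that differed in opposite directions. Without the most abundant pair, Pcdh1 and Pcdh10, the summed log2 ratio was -0.13. None shares windows with another protocadherin, so these values do not depend on how shared exons were counted.

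The delta-1 members, adhesion proteins whose tails bind protein phosphatase, were nearly even (3 higher, 1 lower). Pcdh1 was the highest gene outside the clusters, with 43.55 RPKM in control and 44.755 RPKM in CUMS, a log2 ratio of 0.04 (-0.04 to 0.12). Pcdh7 was 6.06 RPKM in control mice and 6.35 RPKM in CUMS mice (log2 ratio 0.07, -0.09 to 0.22), and 24.6% of its windows also lie in another gene. Pcdh9 was 10.6 and 10.4 RPKM (log2 ratio -0.03, -0.16 to 0.11). The 3 deepest delta-1 genes thus lay within counting error of no difference. Pcdh11x, on the X chromosome, was 1.135 and 1.405 RPKM, a log2 ratio of 0.31 (-0.01 to 0.63).

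The delta-2 members, several of which bind the actin-regulating WAVE complex, were mostly lower (1 higher, 4 lower, median log2 ratio -0.14). Pcdh17 (gene 219228, chromosome 14, 84443563 to 84537565), known for roles in axon growth and synapse formation of corticostriatal circuits, was 7.825 RPKM in control (1099 fragments) and 6.105 RPKM in CUMS (864 fragments). Its log2 ratio was -0.36 (-0.49 to -0.23). Pcdh18 had a similar ratio on far fewer fragments, 1.745 and 1.35 RPKM (log2 ratio -0.37, -0.75 to 0.02). Pcdh19, the gene of an X-linked epilepsy, was 4.78 RPKM in control mice and 4.45 RPKM in CUMS mice (log2 ratio -0.10, -0.26 to 0.05).

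Pcdh8, also called arcadlin, is induced by neuronal activity and removes N-cadherin from synapses. It was 21.6 RPKM in control (1262 fragments) and 19.7 RPKM in CUMS (1158 fragments), a log2 ratio of -0.14 (-0.25 to -0.02). In the list of activity-induced genes, 16 of 17 were lower in CUMS (summed 849 and 554 RPKM, median log2 ratio -0.48), and Pcdh8 differed less than that median. The part of this list's difference in the value of Pcdh8 was not tested. Pcdh10 (gene 18526, chromosome 3, 45378398 to 45434579), needed for the growth of striatal axons and linked to the removal of excitatory synapses, was the delta-2 member that stood higher. It was 37.0 RPKM in control (3498 fragments) and 40.7 RPKM in CUMS (3877 fragments), a log2 ratio of 0.14 (0.07 to 0.20).

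Of the remaining genes, Pcdh20 (gene 219257, chromosome 14, 88464743 to 88471396) had the only difference above 1.5-fold outside the clusters. It was 2.995 RPKM in control (232 fragments) and 1.945 RPKM in CUMS (152 fragments), a log2 ratio of -0.62 (-0.93 to -0.32), or 1.54-fold lower. Pcdh20 had the most fragments of the 3 protocadherins lower by this fold, and its interval lay farthest from 0. The region marker lists of septum, hypothalamus, olfactory bulb and striatum were lower in the same direction, and their part in the values of Pcdh20 and Pcdh17 was not tested. Pcdh15, a tip-link protein of the hair cells of the inner ear, was 1.03 RPKM in control mice and 1.16 RPKM in CUMS mice (log2 ratio 0.17, -0.16 to 0.52). Pcdh12, a protocadherin of endothelial cells, held 11 control fragments and 5 CUMS fragments, too few to show a difference (log2 ratio -1.0, -3.02 to 0.49).

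Genes that control the clusters or carry their signals were followed in lists. CTCF and cohesin bind the promoters and enhancers of the clusters and fold them together to choose a promoter. Of 13 genes of this list, 4 were higher and 8 were lower (median log2 ratio -0.08). Of these 13, 0 differed by more than 1.5-fold. Over all genes of at least 0.5 RPKM, 2.74% were higher and 4.39% lower by this fold, so 0 in a short list says little. By the counting interval, 0 genes of the list were higher and 5 were lower, beside 12.5% and 16.8% of all genes. Its summed log2 ratio was -0.08 (-0.13 to -0.04). Its most abundant genes were the cohesin subunit Rad21, at 33.3 RPKM in control and 34.5 RPKM in CUMS, and the cohesin loader Mau2, at 23.3 and 20.8 RPKM. Of 12 genes that silence cluster promoters, such as DNA and histone methyltransferases, 3 were higher and 9 were lower (median -0.07). Among the 10 that reached 0.5 RPKM, 0 differed by more than 1.5-fold. Dnmt3b, under that level, was 0.29 RPKM in control (17 fragments) and 0.18 RPKM in CUMS (11 fragments), a log2 ratio of -0.69 (-1.88 to 0.54). The most abundant genes of this list were Ehmt2 (82.0 and 79.3 RPKM) and Trim28 (53.3 and 53.2 RPKM), which act in histone methylation.

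Of the 10 genes of the WAVE complex list, through which delta-2 and other protocadherins reach actin, 7 were higher (median log2 ratio 0.06). Of these 10, 0 differed by more than 1.5-fold, beside 2.74% of genes higher and 4.39% lower by this fold. Of the same 10, 5 were higher and 0 were lower by the counting interval, beside 12.5% and 16.8% of all genes. The summed log2 ratio of the list was 0.10 (0.08 to 0.11). Cyfip2 was 206.7 RPKM in control mice and 225.0 RPKM in CUMS mice, and Brk1 was 153.9 and 168.4 RPKM. Of 13 kinases, proteases and other partners of protocadherin tails, 6 were higher and 7 were lower (median -0.02). The abundant kinase Ptk2b, bound by the tails of alpha and gamma members, was 170.9 RPKM in control mice and 173.3 RPKM in CUMS mice, and the synaptic adhesion protein Nlgn2 was 88.7 and 87.4 RPKM. The 1 gene past the fold was Ret, a receptor kinase that can act with clustered protocadherins, at 2.415 RPKM in control (262 fragments) and 0.905 RPKM in CUMS (99 fragments). Its log2 ratio was -1.42 (-1.76 to -1.08). Lower as well were the region marker lists of striatum, septum, hypothalamus and olfactory bulb, whose part in the value of Ret was not tested.

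**Figure D5:**
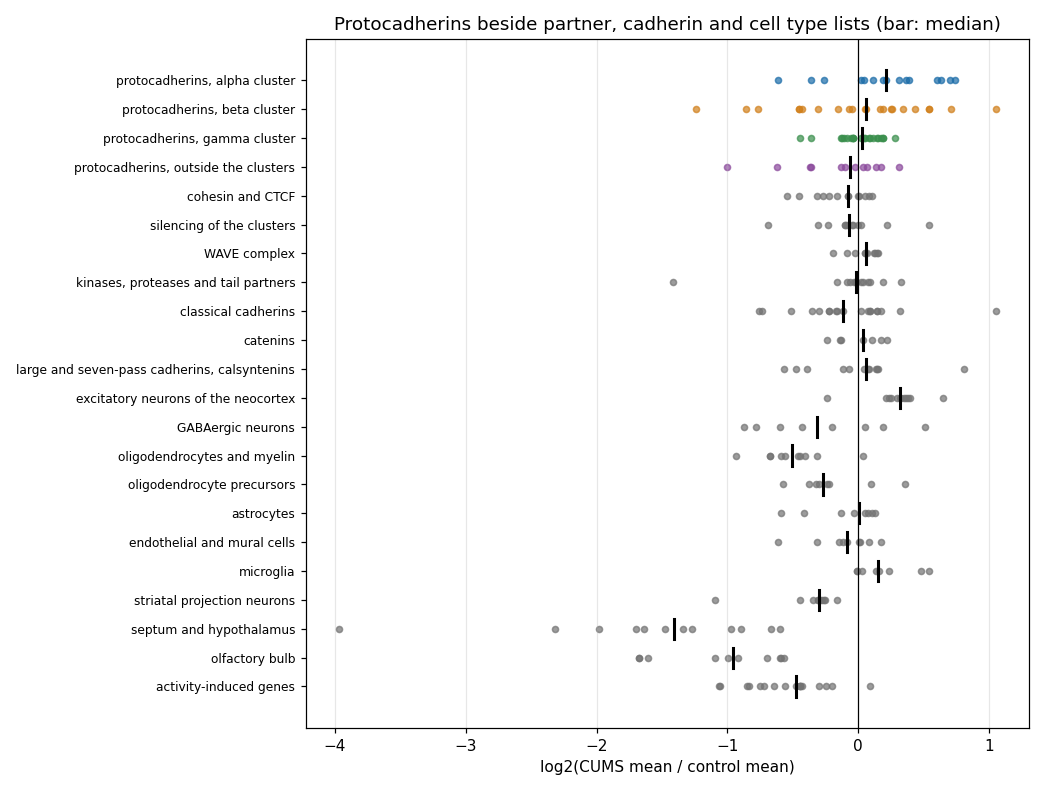
Each point is the log2 ratio of CUMS to control of a gene, in rows for the protocadherin clusters (coloured) and for partner, cadherin, cell type, region and activity-induced lists (grey), with the median of each row as a bar. The median of the alpha cluster is 0.21 and that of neocortical excitatory neuron markers 0.32, whereas the medians of septum and hypothalamus (-1.41) and olfactory bulb (-0.96) lie far lower.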

How the data were processed

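RNA was extracted by the authors from the mPFC of each mouse, poly(A)-selected and sequenced in pairs on an Illumina HiSeq instrument. The submitters' processing notes name TopHat 1.0.12, Bowtie 0.11.3 and the build mm10 (GRCm38). The authors counted uniquely aligned reads; the gene annotation and any use of strand are not given in the sources used here, so genes overlapped by another gene, also on the opposite strand (over 97% of the windows of Pcdha11 and Pcdhga10), are uncertain. The deposited values were group means of RPKM over 2 libraries, with 0.01 in place of 0. The deposited table also held gene lengths, a log2 ratio and a score, the NOISeq probability, of the authors' own comparison, which were not used. limma had been planned for library values and was not run on 2 means.

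Depth was estimated from the steps of mean RPKM times length in genes under 1000 bases (products under 350, 406 control and 392 CUMS values, of which 86.5% and 86.2% lay within 0.15 of a whole step). Equal depth of the libraries in a group was assumed. A larger true depth would narrow the intervals. In simulated data of all 17778 genes, 99.88% to 99.98% of the true depth was recovered. Whether the depth of the real libraries was recovered as well, and how often their intervals cover the true ratio, was not tested. Intervals were exact (Clopper-Pearson, 95%), and a gene at zero was taken at a floor of 3 fragments. PCR copies were not removed, so intervals cover counting error only. Windows of 100 bases were compared between GENCODE M21 transcripts, and coordinates came from the RefSeq table of GRCm38.p6 (71 of 71 members matched both). Python 3.11.15, numpy 2.4.6, pandas 2.3.3, scipy 1.17.1 and matplotlib 3.10.9 were used.

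The members and the 18 lists were chosen with earlier results of these data known. Named are all members outside the clusters, all C-type members, every member past the fold, and in each cluster the 3 highest means and the 3 highest and 3 lowest ratios among members of at least 20 fragments. Of the partner and cadherin lists, the 2 highest means and genes past the fold with at least 20 fragments are named, and the marker lists are given as counts. Other named members were chosen after their values were seen. Alternatives were another scaling, a pseudocount of 0.5 RPKM, filters on level and fragments, and other folds. No sequences are printed.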

Additional observations from a re-analysis of the deposited data

How the results depend on the processing

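No paired analysis was possible because only 1 mean per group was deposited, and for the same reason no replicate could be left out. Of 47 values computed under alternatives, 40 stayed within a tolerance or, for counts, within 1.5 times the reported count. For log2 ratios, medians included, the tolerance was the mean distance from the summed ratio of the group to the ends of its counting interval. Rescaling shifts every log2 ratio by less than this tolerance, so rescaled ratios could not leave it. The label reversed was given to 0 values, and it was not open to counts or to ratios smaller than the tolerance. The median log2 ratio of all genes was -0.015. When CUMS was rescaled to bring it to 0, the summed log2 ratio of the members outside the clusters, -0.0041, became 0.011, within its counting error. The 9 members past a 1.5-fold difference became 21 at the lower fold threshold tried, 1 (Pcdhb8) at a 2-fold difference and 0 where a mean of 5 RPKM was required. The median log2 ratio of the members outside the clusters was -0.027 in place of -0.065 when only those of at least 0.5 RPKM, or only those of at least 20 fragments, were kept, which leaves out Pcdh12. Chosen after seeing the data, leaving out Pcdhgc5 moved the summed log2 ratio of the gamma cluster from 0.046 to 0.0027 while leaving out all 3 C-type members gave 0.058, and leaving out Pcdh1 and Pcdh10 moved that of the members outside the clusters to -0.13.
Group means alone cannot show how mice vary. Depth limits the beta cluster most, where members past the fold rest on 17 to 42 control fragments.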

Other observations

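A list of 19 Cdh genes held mostly classical cadherins, the homophilic adhesion proteins of adherens junctions and synapses. Of these 19 genes, 9 were higher and 10 were lower in CUMS, with a median log2 ratio of -0.12. The most abundant, Cdh13 (T-cadherin), was 44.3 RPKM in control mice and 48.8 RPKM in CUMS mice, a log2 ratio of 0.14 (0.04 to 0.24). Cdh2 (N-cadherin), which Pcdh8 removes from synapses, was 24.4 RPKM in control mice and 24.7 RPKM in CUMS mice (log2 ratio 0.02, -0.08 to 0.12). Cdh19, a cadherin of glial lineages, was the member past a 1.5-fold difference among those of at least 0.5 RPKM, at 1.255 RPKM in control (57 fragments) and 0.74 RPKM in CUMS (34 fragments), a log2 ratio of -0.76 (-1.41 to -0.12). Oligodendrocyte and myelin markers were lower as well (9 of 10), and their part in this value was not tested. Cdh1 (E-cadherin) was 0.22 RPKM in control (14 fragments) and 0.455 RPKM in CUMS (30 fragments), under the level used for calls.

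Of 7 catenins, which join classical cadherins to the cytoskeleton, 4 were higher and 3 were lower. Of these 7, 0 differed by more than 1.5-fold, beside 2.74% of genes higher and 4.39% lower by this fold. Ctnnb1 (beta-catenin) was 171.1 RPKM in control mice and 175.1 RPKM in CUMS mice (log2 ratio 0.03, -0.01 to 0.08), and Ctnnd2 was 47.8 and 53.8 RPKM (log2 ratio 0.17, 0.11 to 0.23). Of 12 large or seven-pass cadherins and calsyntenins, 7 were higher and 5 were lower. Clstn1, a calsyntenin that guides axonal transport, was 415.0 RPKM in control mice and 460.9 RPKM in CUMS mice, a log2 ratio of 0.15 (0.12 to 0.18), whereas Clstn3, an inducer of synapses, was 156.2 and 143.7 RPKM, a log2 ratio of -0.12 (-0.16 to -0.08).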
